A study of Mus musculus with 30 samples.

Results

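The 10 genes described here encode the enzymes that build, lengthen and desaturate long-chain fatty acids: the acetyl-CoA carboxylases Acaca and Acacb, fatty acid synthase (Fasn), the stearoyl-CoA desaturases Scd1 and Scd2, and the elongases Elovl1, Elovl2, Elovl5, Elovl6 and Elovl7. They were chosen by symbol as members of this pathway, by a rule that names no measured value, although earlier results of these data were known when it was written, from the 24421 genes listed for each library. All 10 were among the 15824 genes that passed the filter on low values and were tested. Polyadenylated RNA of whole tissue had been sequenced from 30 mouse libraries, all taken on postnatal day 70. Of these, 28 were cortical tumours labelled glioblastoma and 2 were wild type cortex. The tumour groups differed in the form of the epidermal growth factor receptor (EGFR), a receptor tyrosine kinase that is often mutated in glioblastoma. There were 3 tumours labelled EGFR_wildtype, 5 A289I, 4 A289V, 3 R108G, 4 R108K, 3 R222C and 3 T263P, the variant names each giving a substitution in the receptor's extracellular part. A further 3 tumours were labelled mCherry, a red fluorescent protein, with no receptor form given. The labels used here do not say how the tumours were started, which promoter drove the receptor or which other alleles the tumours and their mCherry controls carried. The 25 tumours labelled with a receptor form are called receptor tumours below. The labels do not say that the libraries of a group came from separate mice, although the series describes several mice per variant, so the p-values measure the spread between these samples.

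Fatty acid synthesis starts when a carboxylase turns acetyl-CoA into malonyl-CoA, from which fatty acid synthase assembles palmitate. Acaca makes the malonyl-CoA used for synthesis in the cytosol, whereas Acacb sits at the outer mitochondrial membrane, where malonyl-CoA restrains the entry of fatty acids into oxidation. Elongases then extend the chain at the endoplasmic reticulum and the stearoyl-CoA desaturases place the first double bond, and in brain much of this output goes into the membranes of neurons, glia and myelin.

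The libraries held 2784129 to 24475215 reads, so that 1 read was worth 0.0387 to 0.383 RPM, scaled reads per 1000000, the unit of every level given here. Mouse Egfr was at 11.3 to 12.7 RPM in cortex, 22.1 to 35.4 in mCherry tumours and at least 98.4 in 22 of the 25 receptor tumours. The other 3, R108G replicates 1 and 3 and T263P replicate 2, had 17.5, 52.3 and 52.1 RPM, so the first of them lay below every mCherry tumour and went against its label by this measure. Whether reads of the labelled receptor form count in mouse Egfr is not given, so this level does not decide the label. The numbers in the library names fell into 3 ranges, below 20, 20 to 37 and above 37, which differed in Rn45s, the ribosomal RNA gene (0.165% to 0.343%, 2.47% to 4.57% and 0.117% to 1.32% of the reads of tumours). Both cortex libraries lay in the middle range, where no mCherry tumour lay, so range and group cannot be told apart between them. Of the mCherry tumours, 2 lay below 20 and 1 above 37. Of the EGFR_wildtype tumours 2 lay below 20 and 1 in the middle range, of the A289V tumours 1 and 3, and of the R108K tumours 2 and 2. The R222C and T263P tumours lay wholly in the middle range, so for these variants range and group cannot be told apart against mCherry. The A289I and R108G tumours lay wholly above 37, where no EGFR_wildtype, A289V or R108K tumour lay. Range and group thus cannot be told apart either when A289I is set against EGFR_wildtype or A289V, or R108G against EGFR_wildtype or R108K. mCherry replicate 2 and EGFR_wildtype replicates 1 and 2 stood apart with 6283, 4610 and 3853 RPM of the receptor tyrosine kinase gene Met, against at most 437 RPM elsewhere. As a check of the tissue, all 12 neuron markers summed to 14599 to 14689 RPM in cortex and to 123 to 11624 RPM in tumours. The markers of oligodendrocyte precursors, which glioblastoma cells often resemble, were higher in receptor tumours than in cortex for 6 of 7 genes (limma, adjusted p below 0.05). Of all tested genes 22.9% were higher. Adipocyte markers, whose cells are rich in these enzymes, summed to at most 4.22 RPM in every library.

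The genes lie on 7 chromosomes of the mouse genome (GRCm38, GENCODE M21), and Scd1 (chr19:44394455-44407879, minus strand) and Scd2 (chr19:44293674-44306864, plus strand) are neighbours. Acaca spans chr11:84129672-84401651 and Acacb chr5:114146535-114250761, both on the plus strand, and Fasn chr11:120805846-120824547 on the minus strand. The elongases lie at chr4:118428093-118432953 (Elovl1, plus), chr13:41182381-41220405 (Elovl2, minus), chr9:77917364-77984519 (Elovl5, plus), chr3:129532355-129638495 (Elovl6, plus) and chr13:108214404-108285683 (Elovl7, plus). RefSeq promoter windows (GRCm38.p6) were found for 8 of the 10 genes, with none used here for Scd1 and Scd2. Shown are the 250 bases before the start site for the carboxylase pair, whose levels part in these tumours, for Fasn and for Elovl7, the elongase whose level follows myelin genes. Capitals mark CCAAT (the core of the NF-Y motif), GGGCGG (the motif of Sp1) and TATAAA (found close to many start sites) on either strand.
Acaca: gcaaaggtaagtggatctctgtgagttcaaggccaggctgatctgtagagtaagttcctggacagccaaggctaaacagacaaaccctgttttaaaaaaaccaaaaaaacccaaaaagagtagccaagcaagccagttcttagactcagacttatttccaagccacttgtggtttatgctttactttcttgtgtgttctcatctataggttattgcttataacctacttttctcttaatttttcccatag
Acacb: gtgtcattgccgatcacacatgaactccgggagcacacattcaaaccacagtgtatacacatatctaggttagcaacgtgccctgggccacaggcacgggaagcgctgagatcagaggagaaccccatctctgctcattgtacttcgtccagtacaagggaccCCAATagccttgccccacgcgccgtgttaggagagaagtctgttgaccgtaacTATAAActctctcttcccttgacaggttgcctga
Fasn: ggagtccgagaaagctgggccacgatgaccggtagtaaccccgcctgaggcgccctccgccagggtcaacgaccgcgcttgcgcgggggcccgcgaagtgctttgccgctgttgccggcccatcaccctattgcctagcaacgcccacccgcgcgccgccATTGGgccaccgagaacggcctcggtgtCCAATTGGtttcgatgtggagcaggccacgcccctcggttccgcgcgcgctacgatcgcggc
Elovl7: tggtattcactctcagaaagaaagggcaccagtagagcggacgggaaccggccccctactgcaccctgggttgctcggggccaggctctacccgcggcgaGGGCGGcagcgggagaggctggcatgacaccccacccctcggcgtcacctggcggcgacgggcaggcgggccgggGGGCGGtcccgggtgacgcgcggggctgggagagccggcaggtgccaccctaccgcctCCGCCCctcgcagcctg
The Acaca stretch is chr11:84195188-84195437 on the plus strand, before a start site that lies 65766 bases inside the gene, and it holds none of these motifs. The Acacb stretch, chr5:114165268-114165517 on the plus strand, also precedes an internal start site, 18983 bases into the gene, and it holds 1 CCAAT and 1 TATAAA. The Fasn stretch, chr11:120824548-120824797 on the minus strand, holds 3 CCAAT motifs on either strand, 2 of which overlap. The Elovl7 stretch, chr13:108214154-108214403 on the plus strand, holds 3 GGGCGG motifs. The windows of 300 bases also differed in base composition, with 39.7% G and C for Acaca, 51.7% for Acacb, 69.3% for Fasn and 74% for Elovl7. Among all 32851 RefSeq windows of that length, 37.4% held CCAAT, 35.7% GGGCGG and 13.6% TATAAA. The letters TCACCCCAC, which are the sterol element SRE-1 less its first base, the E-box CACGTG and the SOX motif ACAAAG were also searched on both strands and were in 0.551%, 7.15% and 18.7% of all windows. Of the 10 windows of these genes, none held the SRE-1 letters, 1 (Elovl5) held the E-box and 1 (of Elovl2) held ACAAAG. A match describes letters only.

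Levels of different genes can be set against each other only per length. Read per kilobase of all exons of a gene, Scd2 was the most abundant of the 10 in every group of samples. Its mean level was 317 RPM per kilobase in cortex (n = 2), 215 in mCherry tumours (n = 3) and 339 in receptor tumours (n = 25). Scd1, its neighbour, was at 50.1, 19.8 and 40.1 RPM per kilobase, and Fasn at 27.3, 34.7 and 43.5. The carboxylases were far lower. Acaca was at 3.43, 6.08 and 6.18 RPM per kilobase and Acacb at 0.447, 0.244 and 2.63, which made Acacb the lowest of the 10 in cortex and mCherry tumours. In receptor tumours the lowest level was that of Elovl2, at 1.66 RPM per kilobase against 4.78 in cortex. Per kilobase of the longest transcript these highest and lowest genes were the same, but Acaca was at 11.1 RPM per kilobase in receptor tumours, and Elovl5 (43.9) then stood above Scd1 (40.6).

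**Figure D1:**
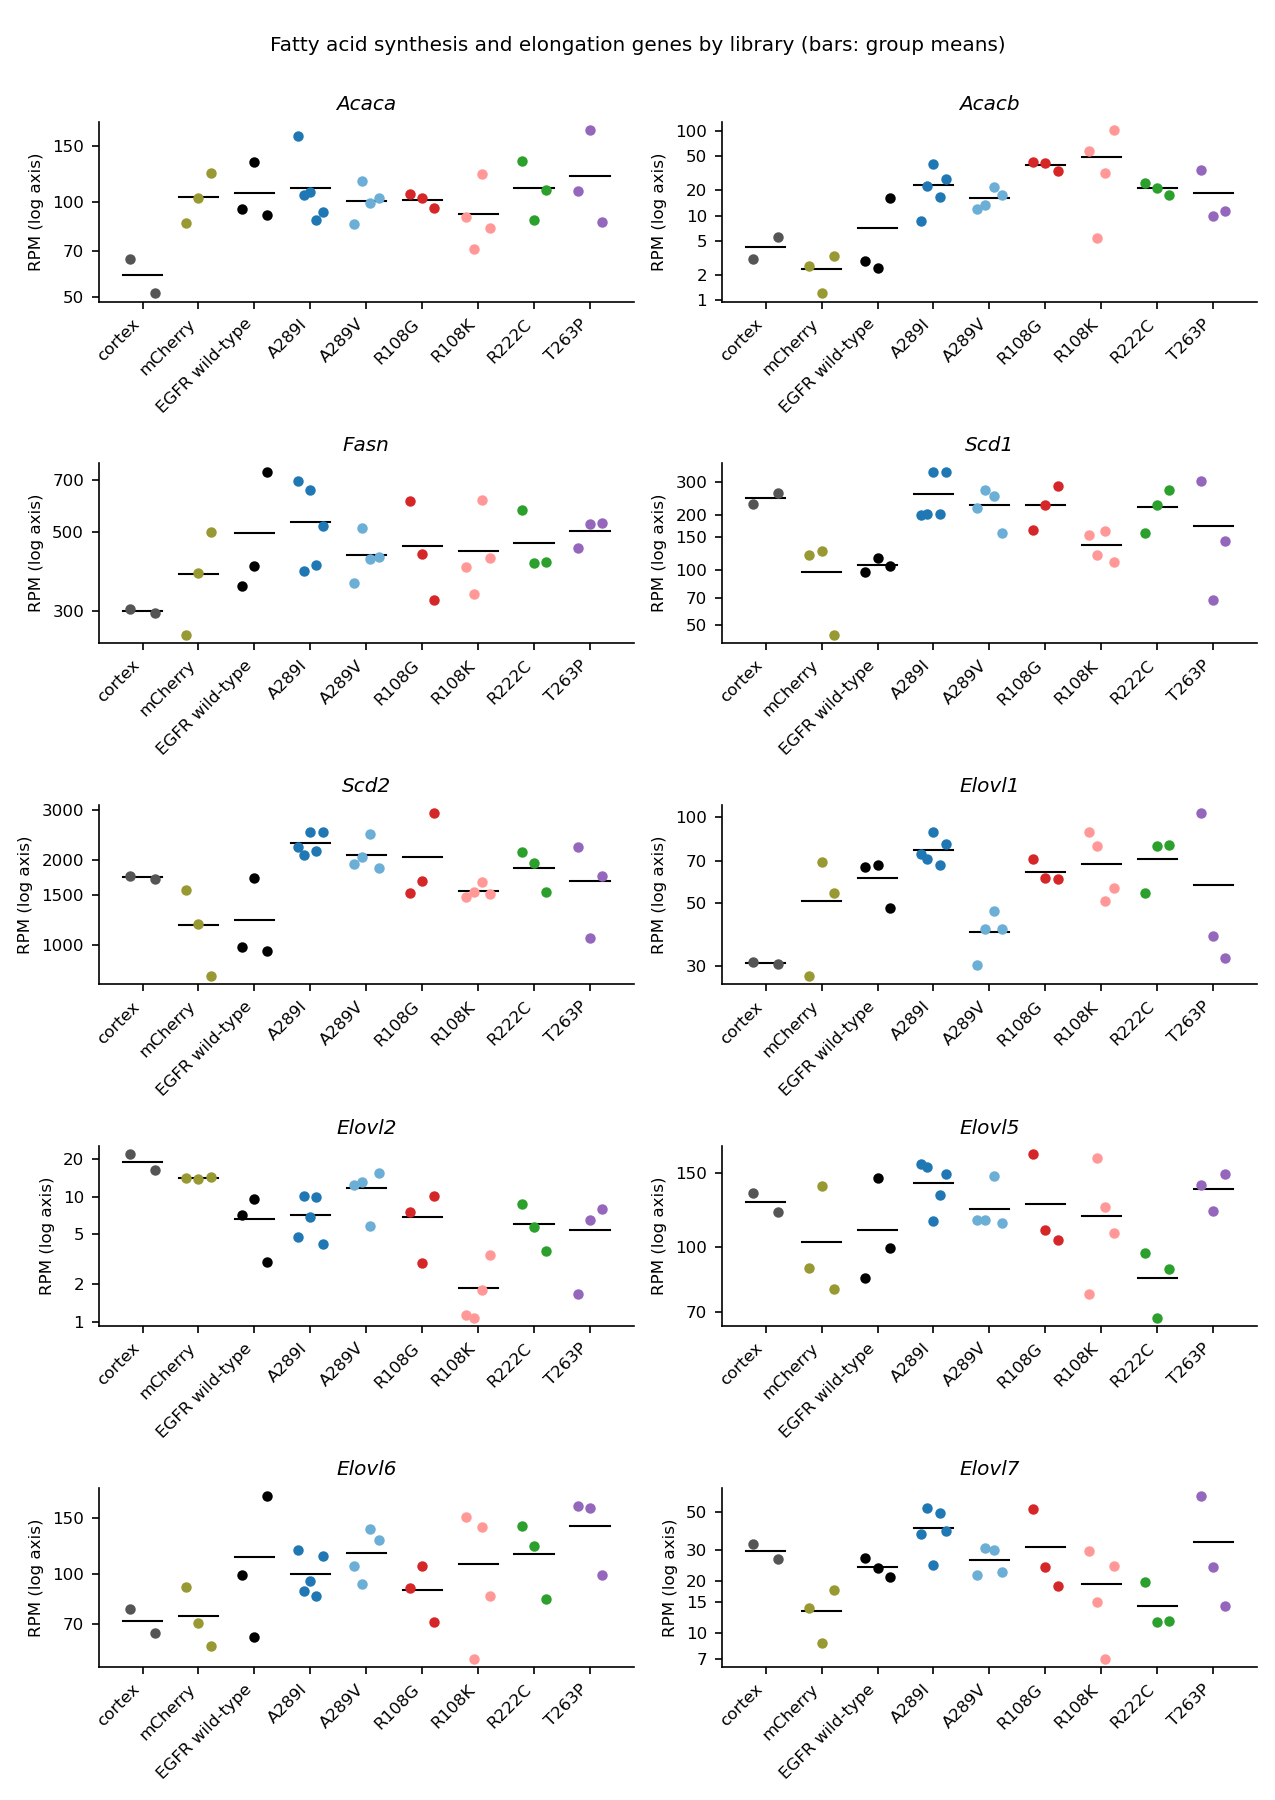
Levels of the 10 genes in every library, in RPM on log axes, by group along the horizontal axis, with 1 point per library and a bar at the group mean. Acacb lies between 1.21 and 3.30 RPM in the 3 mCherry tumours and reaches 102 RPM in an R108K tumour, whereas Acaca stays between 71.1 and 168 RPM in all tumours.

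A gene was called when limma's adjusted p (Benjamini-Hochberg over the 15824 tested genes) was below 0.05, and differences are on the log2(RPM + 1) scale with their standard errors. Against cortex, 2 of the 10 genes were called in mCherry tumours, Acaca higher and Scd1 lower, where 38.3% of all tested genes were called (17.8% higher and 20.5% lower). In the mean of the 7 receptor groups against cortex 4 of 10 were called, Acaca, Acacb and Elovl1 higher and Elovl2 lower, where 47.2% of all genes were (22.9% higher and 24.3% lower). Both shares of the 10 genes lie below those backgrounds. The 2 comparisons share their cortex libraries. The median difference of the 10 genes was -0.38 in mCherry tumours and 0.30 in receptor tumours, against 0.01 and 0.03 over all tested genes.

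The receptor groups were then compared with the mCherry tumours, the controls with no receptor form named, and the comparisons share these 3 libraries. In the mean of the 7 receptor groups none of the 10 genes was called by limma, where 0.0379% of all genes were, while 6 of the 10 had an unadjusted p under 0.05. edgeR on the recovered reads also called 0 and DESeq2 called 1, Acacb. All backgrounds given here are limma's. The shares of all genes that edgeR and DESeq2 called are not given, so their counts of members cannot be read against a background. Of the 10 differences 9 were positive, with a median of 0.44 against 0.0028 over all genes. In the single groups, limma called 1 of 10 in A289I (Acacb higher, background 0.607%, of which 0.525% higher), 2 in A289V (Acacb and Scd1 higher, background 4.91%, of which 3.23% higher) and 2 in R108K (Acacb higher and Elovl2 lower, background 0.0695%, of which 0.0506% higher and 0.019% lower). It called none in EGFR_wildtype (background 0%), R108G (0.0379%), R222C (0%) and T263P (0.00632%). In these 4 groups, in that order, the unadjusted p was under 0.05 for 1, 5, 4 and 4 of the 10 genes. edgeR called none of them in any of the 4 groups, and DESeq2 called 0, 1, 1 and 1, Acacb each time.

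**Figure D2:**
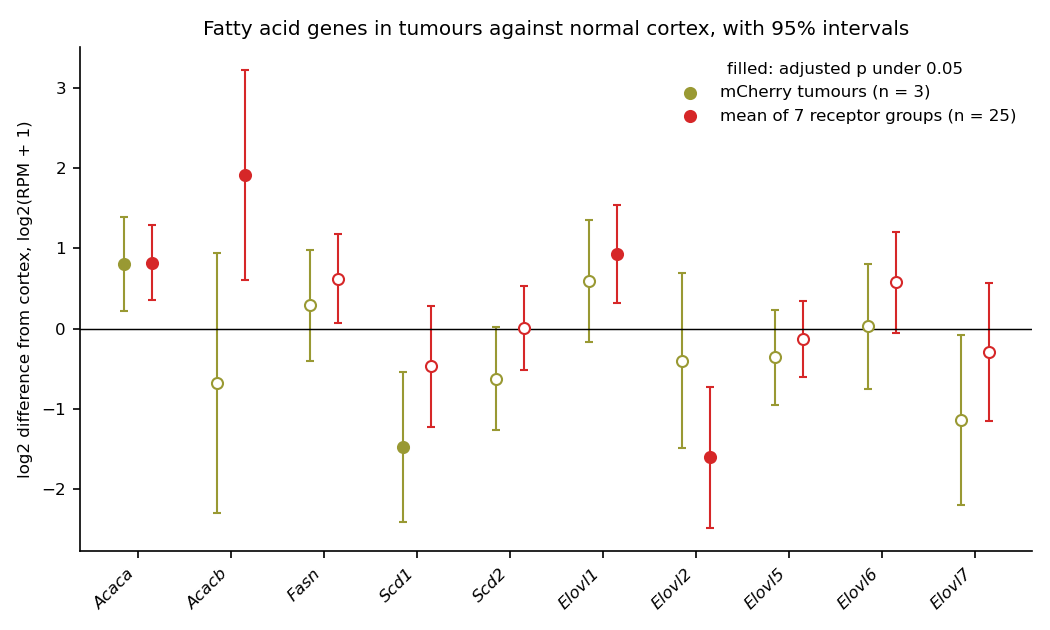
Differences from cortex on the log2(RPM + 1) scale for the 10 genes, for mCherry tumours and for the mean of the 7 receptor groups, with 95% intervals and filled points for adjusted p under 0.05. Acaca lies about equally far above 0 in both (0.81 and 0.82), whereas Acacb lies at -0.68 in mCherry tumours and at 1.92 in receptor tumours.

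Acaca, the carboxylase of the synthetic route, was higher in tumours than in cortex whether or not a receptor form was named. It was at 65.9 and 51.3 RPM in the cortex libraries, at 85.7, 102 and 123 RPM in the mCherry tumours, and between 71.1 and 168 RPM with a median of 102 RPM in the 25 receptor tumours. All 28 tumours lay above both cortex libraries. The difference was 0.81 ± 0.28 in mCherry tumours (limma, adjusted p = 0.027) and 0.82 ± 0.23 in receptor tumours (adjusted p = 0.00477), and within library numbers 20 to 37 the latter was 0.83 (adjusted p = 0.0207). Between receptor and mCherry tumours Acaca differed by 0.01, with a 95% interval of -0.38 to 0.41. With only 2 cortex libraries the calls were not stable. Without cortex replicate 2 the adjusted p was 0.218 in mCherry and 0.139 in receptor tumours, and the call in mCherry tumours was also lost without cortex replicate 1 (0.0542), mCherry replicate 2 (0.0519) or mCherry replicate 3 (0.101).

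Acacb, the mitochondrial carboxylase, had the widest range of the 10 genes among receptor tumours, 42.4 times from the lowest to the highest, against 2.29 to 14.3 times for the other genes. The mCherry tumours had 2.55, 1.21 and 3.30 RPM, from 21, 22 and 48 reads, and cortex had 3.09 and 5.52 RPM. The EGFR_wildtype tumours had 2.89, 2.40 and 15.9 RPM, so the first pair lay in the mCherry range and the third stood above it. All 22 variant tumours lay above every mCherry tumour, and 21 of these 22 also lay above 5.52 RPM, the exception being R108K replicate 2.
The 5 A289I tumours had 8.63, 22.5, 40.5, 16.8 and 26.98 RPM, and the 4 A289V tumours 11.9, 13.4, 21.99 and 17.6 RPM. The 3 R108G tumours had 42.5, 41.9 and 33.2 RPM, the narrowest spread for their level (39.2 ± 5.22 RPM, SD). The first of them is the tumour whose Egfr level was 17.5 RPM. The 4 R108K tumours had 57.9, 5.44, 31.8 and 102 RPM, the widest spread of any group (49.2 ± 41.0 RPM, SD), with replicate 2 alone below 30 RPM. The 3 R222C tumours had 24.4, 20.9 and 17.4 RPM and the 3 T263P tumours 34.3, 9.83 and 11.3 RPM. Ordered by group mean, R108K led R108G, A289I, R222C, T263P, A289V, EGFR_wildtype, cortex and mCherry, and the ranges of each neighbouring pair overlapped.

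In receptor tumours Acacb rose over cortex by 1.92 ± 0.64 (limma, adjusted p = 0.0155), and within library numbers 20 to 37 by 2.16 (adjusted p = 0.00308). That call was lost without either cortex library (adjusted p = 0.194 without replicate 1 and 0.0637 without replicate 2). Against mCherry the mean of the receptor groups was 2.59 ± 0.53 higher (95% interval 1.51 to 3.68, a fold of 6.04 on that scale), with 23 of 25 tumours above all 3 mCherry tumours, but the adjusted p was 0.0743. It was 0.0565 in edgeR and 1.4e-05 in DESeq2, 0.0419 with a pseudocount of 0.1 RPM, and 0.00695 without R108K replicate 2. Within the ranges of library numbers the difference was 1.79 below 20, which was not called, and 2.77 above 37, where 1 mCherry tumour lay. With a term for the ranges it was 1.90 (limma, adjusted p = 0.541). The libraries with high Met were among those with little Acacb, and without these 3 libraries the difference was 2.53 (adjusted p = 0.188).

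Group by group, Acacb was higher than in mCherry by 2.74 ± 0.63 in A289I (limma, adjusted p = 0.0429), 2.38 ± 0.66 in A289V (adjusted p = 0.0437) and 3.38 ± 0.66 in R108K (adjusted p = 0.0464). All tumours of these groups lay above all mCherry tumours. The differences in R108G (3.63 ± 0.71, adjusted p = 0.0532), R222C (2.75 ± 0.71, adjusted p = 0.306) and T263P (2.38 ± 0.71, adjusted p = 0.712) were of like size and were not called, and that of EGFR_wildtype was 0.91 ± 0.71. The calls turned on single libraries. That of A289I held in 1 of 8 fits with a library left out, without A289I replicate 1 (adjusted p = 0.0286), and was otherwise between 0.079 and 0.13. That of R108K held without R108K replicate 2 (adjusted p = 0.0012) and was otherwise between 0.0918 and 0.155. That of A289V held in 2 of 7 such fits and was between 0.0608 and 0.166 in the others. With a term for the ranges of library numbers, the calls of A289I, A289V and R108K were all lost. Within library numbers above 37, with 1 mCherry tumour, the A289I difference was 2.33. Below 20 the difference was 2.21 for the 1 A289V tumour there and 2.797 for R108K (limma, adjusted p = 0.881).

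**Figure D3:**
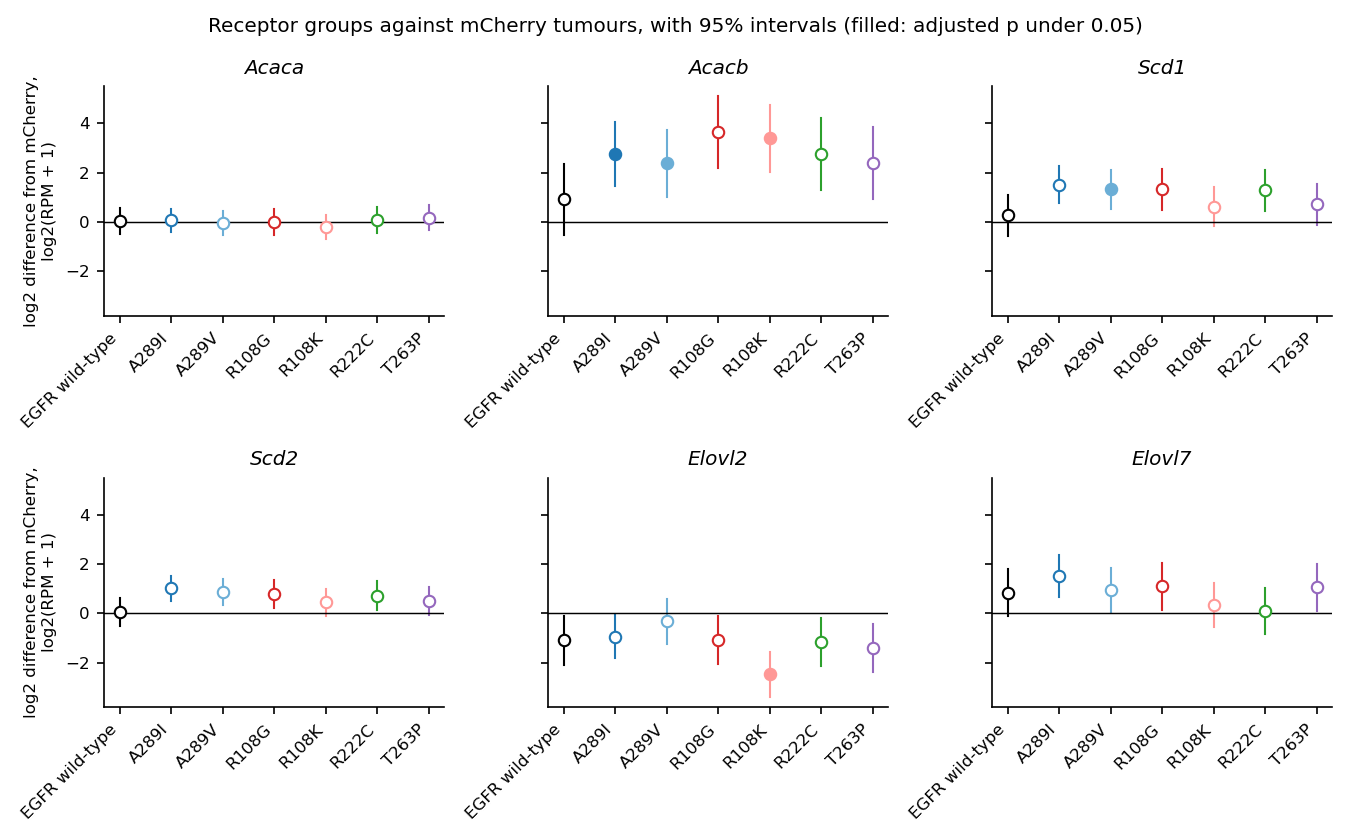
Differences from the mCherry tumours on the log2(RPM + 1) scale, for Acaca, Acacb, Scd1, Scd2, Elovl2 and Elovl7 in each receptor group, with 95% intervals and filled points for adjusted p under 0.05. The Acacb values lie between 0.91 (EGFR_wildtype) and 3.63 (R108G), those of Acaca between -0.20 and 0.18, and Elovl2 lies below 0 in every group.

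The balance of the carboxylase pair was summarised per library as the log2 ratio of Acaca to Acacb, (RPM + 1) in each. It was 5.01 ± 0.49 (SD, n = 3) in mCherry tumours and 2.39 ± 1.24 (SD, n = 25) in receptor tumours, a difference of -2.62 (exact permutation test, two-sided, p = 0.00153, 0.0061 adjusted over 4 ratio tests; the smallest possible p was 0.000305). Without mCherry replicate 2 the difference was -2.35 (exact permutation p = 0.0171, adjusted p = 0.0684). Acaca hardly differed between receptor and mCherry tumours, so this ratio restates the Acacb difference with its sign turned. It is no separate result, and limma did not call that Acacb difference over all tested genes. The adjustment here covers only 4 ratios. The permutation also treated tumours of the same group, and of the same range of library numbers, as independent. In cortex the ratio was 3.52, against 2.67 over all 28 tumours (exact permutation p = 0.428). That difference of -0.85 was -0.34 without cortex replicate 1, -1.36 without cortex replicate 2 and -1.26 (exact permutation p = 0.143) within library numbers 20 to 37. Expressed as reads, Acaca supplied 97.1% to 98.8% of the reads of the pair in mCherry tumours, 90.3% to 95.5% in cortex, 71.1% to 74.2% in R108G tumours and 44.8% to 92.9% in R108K tumours. In R108K replicate 4 alone Acacb gave more reads than Acaca. In whole tissue, a change in the number of cells of a type and a change in RNA per cell cannot be told apart, and this holds for each difference reported here.

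**Figure D4:**
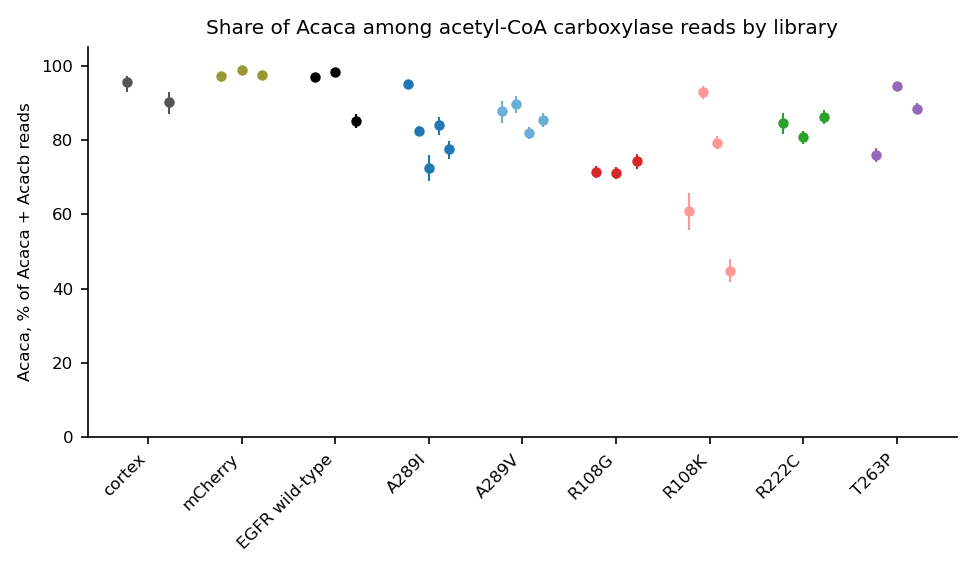
Share of Acaca in the reads of Acaca and Acacb together, in percent, with 1 point per library by group and 95% exact binomial intervals that cover counting error only. The mCherry tumours sit between 97.1% and 98.8%, and the R108G tumours between 71.1% and 74.2%.

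Fasn, which carries out all steps from malonyl-CoA to palmitate, was at 304 and 295 RPM in cortex and at 257, 384 and 499 RPM in mCherry tumours. In the 25 receptor tumours it ranged from 322 to 737 RPM with a median of 426 RPM. Every receptor tumour lay above both cortex libraries, whereas the mCherry tumours lay on both sides of them. The difference between receptor tumours and cortex was 0.62 ± 0.27 and just missed the threshold (limma, adjusted p = 0.0597). It was 0.80 (adjusted p = 0.00793) within library numbers 20 to 37, and DESeq2 gave an adjusted p of 0.0408. Against mCherry the receptor groups differed in Fasn by 0.33 ± 0.22 (adjusted p = 0.895). Fasn also varied little among the tumour groups, with an adjusted p of 0.823 in limma's F-test over the 8 tumour groups.

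That F-test asked of each gene whether any tumour group differed, and it called 4 of the 10 genes, Acacb (adjusted p = 0.0138), Elovl2 (0.0162), Scd1 (0.038) and Scd2 (0.0441), where 10.3% of all tested genes were called. edgeR called 3 of the 10 and DESeq2 5. Within each of the 3 ranges of library numbers it called none of the 10.

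The desaturases Scd1 and Scd2, which make oleate and palmitoleate from saturated chains, had their lowest tumour group means in mCherry and EGFR_wildtype tumours and their highest in A289I tumours. Scd1 was at 227 and 262.8 RPM in cortex and at 121, 126 and 44.1 RPM in mCherry tumours. All 3 mCherry tumours thus lay below cortex, and the third far below the other two. The difference was -1.47 ± 0.45 (limma, adjusted p = 0.013), or -1.73 (adjusted p = 0.013) without the libraries with high Met. The call was lost without cortex replicate 1 (adjusted p = 0.056), cortex replicate 2 (0.0967) or mCherry replicate 3 (0.0975). Scd2 was at 1754 and 1713 RPM in cortex and at 1560, 1188 and 774 RPM in mCherry tumours, again with no overlap, at a difference of -0.62 that was not called (adjusted p = 0.122). In the mean of the receptor groups Scd1 differed from cortex by -0.47 and Scd2 by 0.01, and neither was called.

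Scd1 in the A289V tumours was at 216, 274, 253 and 158 RPM, above all mCherry tumours, a difference of 1.32 ± 0.38 (limma, adjusted p = 0.0477). In the A289I tumours it was at 199, 202, 343, 201.1 and 342 RPM, likewise above all mCherry tumours, with a difference of 1.495 ± 0.36 that just missed the threshold (adjusted p = 0.0529). Within library numbers above 37 the A289I difference was 2.47, against 1 mCherry tumour, replicate 3, which had the least Scd1 of the mCherry tumours. Below 20 the A289V difference was 0.81, for 1 A289V tumour. The A289V call held in 2 of 7 fits with a library left out and was between 0.0649 and 0.272 in the others.
Scd2 was at 2212, 2076, 2512, 2144 and 2498 RPM in A289I tumours and at 1930, 2047, 2453 and 1874 RPM in A289V tumours, in both groups above every mCherry tumour. Its differences from mCherry were 1.02 ± 0.25 (limma, adjusted p = 0.0572) and 0.87 ± 0.26 (adjusted p = 0.0513). DESeq2 called Scd1 and Scd2 in both A289 groups, and edgeR called neither. In R108K tumours Scd1 was at 155, 120, 163 and 110 RPM, overlapping the mCherry range. The R108G (164 to 286 RPM) and R222C tumours (158 to 273 RPM) also lay wholly above the mCherry tumours in Scd1. It was called by limma in neither group. EGFR_wildtype and T263P tumours overlapped the mCherry range, as those of R108K did.

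Beside these values, myelin markers were higher in every A289I and A289V tumour than in every mCherry tumour, as they were in every R108G tumour and in some tumours of other groups. The 12 myelinating oligodendrocyte markers, none of which was at 0 in every library of a group, summed to 6471 to 14675 RPM in A289I and 4204 to 7455 RPM in A289V tumours, against 1135 to 2501 RPM in mCherry and 2194 to 3806 RPM in EGFR_wildtype tumours and 13294 to 13659 RPM in cortex. The sums were 2695 to 8248 RPM in R108G, 1300.5 to 5996 RPM in R108K, 1759 to 3527 RPM in R222C and 1740 to 13028 RPM in T263P tumours. Against mCherry, 7 of the 12 passed limma's test in A289I (background 0.607%) and 3 of 12 in A289V (background 4.91%). Neuron markers summed to 3164 to 11624 RPM in A289V tumours against 666 to 3446 RPM in mCherry tumours. Their part in the desaturase and carboxylase differences was not tested.

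Against EGFR_wildtype tumours, which carry the unmutated receptor, Acacb, Scd1 and Scd2 had the smallest p-values of the 10 genes in the mean of the variants. The mean of the 6 variants differed from them in none of the 10 genes by limma (background 0%), with 3 genes at an unadjusted p under 0.05 and 0 called by edgeR and by DESeq2. The 3 genes were Acacb (1.97 ± 0.53, adjusted p = 0.323), Scd1 (0.86, adjusted p = 0.542) and Scd2 (0.67, adjusted p = 0.455). Without EGFR_wildtype replicate 3, the tumour with 15.9 RPM of Acacb, the Acacb difference was 2.71 (limma, adjusted p = 0.0471). The Acacb difference was 0.49 without the 3 libraries with high Met and 0.56 within library numbers 20 to 37. Both fits leave replicate 3 as the only EGFR_wildtype tumour, so neither tells Met or range from that tumour. Below 20 the difference was 2.13 (limma, adjusted p = 0.72). Among single variants limma called 1 of 10, Scd2 in A289V (0.82 ± 0.26, adjusted p = 0.0393), where 13.7% of all genes were called and 9.69% were called higher. The EGFR_wildtype tumours had 982, 1724 and 953 RPM of Scd2, all below the 4 A289V tumours. This call held in 1 of 7 fits with a library left out, without A289V replicate 4 (limma, adjusted p = 0.0405). The difference was 1.15 within library numbers 20 to 37, with 1 EGFR_wildtype tumour, and 0.57 below 20, with 1 A289V tumour. In A289I none was called (background 0.335%), with 3 at an unadjusted p under 0.05, 0 by edgeR and 2 by DESeq2 (Scd1 and Scd2). In R108G, R108K, R222C and T263P limma called none (background 0% in each), with unadjusted p under 0.05 for 3, 2, 3 and 1 genes, and DESeq2 called 0, 1, 0 and 0. edgeR called none in these groups or in A289V.

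The balance of Scd1 and Scd2 was compared in the same way. Scd1 gave 11.5% to 13.3% of the reads of the pair in cortex, 5.39% to 9.58% in mCherry tumours and 6.05% to 15.1% in receptor tumours, so the cortex and mCherry ranges did not overlap. The log2 ratio was lower in all tumours than in cortex by 0.51 (exact permutation test, two-sided, p = 0.0736, adjusted p = 0.146) and differed by 0.38 between receptor and mCherry tumours (exact permutation p = 0.109, adjusted p = 0.146). The latter was 0.60 (exact permutation p = 0.0313, adjusted p = 0.0627) without mCherry replicate 2 and 0.16 (exact permutation p = 0.567) without mCherry replicate 3. A part of either gene cannot be told from other Scd copies, since 4.56% of the stretches of 50 bases in Scd1 transcripts and 3.75% of those in Scd2 occur in another gene of the family.

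Of the elongases, Elovl1 makes very long saturated and monounsaturated chains, Elovl2 and Elovl5 lengthen polyunsaturated fatty acids, Elovl6 takes palmitate to stearate, and Elovl7 acts on long saturated chains. Elovl2 fell in receptor tumours. It was at 21.7 and 16.3 RPM in cortex, at 14.0, 13.7 and 14.4 RPM in mCherry tumours, and between 1.09 and 15.5 RPM with a median of 6.51 RPM in receptor tumours. All 28 tumours lay below both cortex libraries, and 24 of the 25 receptor tumours below the mCherry tumours, which lay close together. The exception was A289V replicate 4. The receptor mean differed from cortex by -1.60 ± 0.43 (limma, adjusted p = 0.00343), and the difference was -1.78 (adjusted p = 0.00981) within library numbers 20 to 37. Without cortex replicate 1 the adjusted p was 0.0846. Against mCherry the difference was -1.21 ± 0.36 and was not called (adjusted p = 0.357).

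The 4 R108K tumours had the least Elovl2, at 1.15, 1.09, 1.81 and 3.39 RPM from 3, 14, 24 and 18 reads. The exact Poisson 95% interval of the first was 0.237 to 3.36 RPM, so all 4 intervals lay below the mCherry tumours' levels. The difference from mCherry was -2.46 ± 0.44, a fold of 5.5 down on the RPM + 1 scale (limma, adjusted p = 0.0277; group means 1.86 ± 1.07 RPM, SD, n = 4, and 14.02 ± 0.33 RPM, SD, n = 3), and edgeR (adjusted p = 0.0431) and DESeq2 (0.000136) called it too. It held when R108K replicate 2 or 4 was left out and was between 0.093 and 0.102 in the other fits with a library left out. Below library number 20 the difference was -2.81 (adjusted p = 0.881). The R108G tumours, which change the same residue to another amino acid, had 7.50, 2.97 and 10.03 RPM. The difference of 1.398 ± 0.44 between the R108G and R108K groups was not called (limma, adjusted p = 0.348). Only the R108G tumours of these had library numbers above 37, so library range and group cannot be told apart in that comparison. In that comparison none of the 10 genes was called by limma (background 0%), edgeR or DESeq2, and 1, Elovl2, had an unadjusted p under 0.05. Neuron markers summed to 420 to 733 RPM in R108K, against 666 to 3446 RPM in mCherry tumours, and their part was not tested.

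Elovl7 was at 32.5 and 26.9 RPM in cortex and at 13.9, 8.67 and 17.7 RPM in mCherry tumours, with no overlap but no call (-1.14, limma, adjusted p = 0.0833). The A289I tumours had 37.4, 52.8, 24.6, 49.1 and 38.7 RPM, all above the mCherry tumours, at a difference of 1.53 ± 0.41 (adjusted p = 0.0915) that DESeq2 called (adjusted p = 0.0182). The EGFR_wildtype (21.13 to 26.95 RPM), A289V (21.7 to 31.06 RPM) and R108G tumours (18.59 to 52.07 RPM) also lay wholly above the mCherry tumours in Elovl7. Those of R108K, R222C and T263P overlapped the mCherry range. T263P replicate 1, at 62.3 RPM, was the highest of all tumours, while the other T263P tumours had 24.1 and 14.3 RPM. The same tumour had 13028 RPM of myelin markers, against 3198 and 1740 RPM in the other two.

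Elovl1 was at 31.1 and 30.6 RPM in cortex and between 30.2 and 103 RPM in receptor tumours, of which 24 of 25 lay above cortex. The difference was 0.93 ± 0.30 (limma, adjusted p = 0.0124), and it was 0.74 (adjusted p = 0.0961) within library numbers 20 to 37. Without cortex replicate 1 its adjusted p was 0.098, and without replicate 2 it was 0.109. The 3′ end of Elovl1 overlaps an exon of the mitotic gene Cdc20 on the other strand, and Cdc20 was 4.64 higher in receptor tumours than in cortex on the log2 scale. The libraries were stranded, but whether counting used the strand is not given in the sources used here, so the Elovl1 values are uncertain. Between the A289 variants, none of the 10 genes was called by limma (background 0%), with 1 at an unadjusted p under 0.05 and 1 called by DESeq2, Elovl1. It was at 74.3, 71.3, 88.7, 68.0 and 80.0 RPM in A289I and at 30.2, 40.5, 46.8 and 40.4 RPM in A289V tumours, 2 ranges that do not overlap, at a difference of 0.95 ± 0.27 (limma, adjusted p = 0.113). Cdc20 was also higher in A289I than in A289V tumours, by 1.045 ± 0.40 (limma, adjusted p = 0.169), and its part was not tested. Only the A289I tumours of these had library numbers above 37, so library range and variant cannot be told apart in this comparison. edgeR called none.

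Elovl5 had the narrowest range of the elongases among receptor tumours, 2.45 times from the lowest to the highest. Elovl6 (3.24 times) was close to Elovl1 (3.41 times). Elovl5 was at 135 and 121 RPM in cortex, at 89.2, 140 and 79.5 RPM in mCherry tumours and between 67.9 and 166 RPM in receptor tumours, with full overlap and a difference from cortex of -0.13. Elovl6 was at 77.5 and 65.5 RPM in cortex, at 91.4, 70.6 and 59.5 RPM in mCherry tumours and between 54.3 and 176 RPM in receptor tumours, of which 22 of 25 lay above cortex. Its difference from cortex was 0.58 (limma, adjusted p = 0.122), or 0.84 (adjusted p = 0.0254) within library numbers 20 to 37. All A289V (93.0 to 139 RPM) and T263P tumours (99.6 to 164 RPM) lay above the mCherry tumours in Elovl6. Against mCherry it was called by limma in neither group.

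Over the 28 tumours, levels of the genes were compared in pairs on the log2 scale, and each gene was compared with the means of the myelin, neuron and astrocyte markers, 75 relations in all with 100000 permutations each and Benjamini-Hochberg adjustment over the 75. Tumours of the same group, and of the same range of library numbers, are not independent of each other in these relations. Of 45 pairs of genes, 1 passed by both Pearson's r and Spearman's rho, Scd1 with Scd2 (r = 0.862, rho = 0.82, both with an adjusted permutation p of 0.000375, the smallest that the permutations could give here). Without the 2 tumours farthest from the median of Scd1, r was 0.788, and within the ranges of library numbers it was 0.675 below 20, 0.771 from 20 to 37 and 0.942 above 37. Acaca and Fasn had r = 0.507 (adjusted permutation p = 0.0634).
Elovl7 followed the myelin markers (r = 0.879, rho = 0.876, adjusted permutation p = 0.000375 for both), with r = 0.852 without 2 tumours and 0.713, 0.935 and 0.817 within the ranges. Scd2 did so less closely (r = 0.538, rho = 0.581, adjusted permutation p = 0.0463 and 0.0365, r = 0.496 without 2 tumours and 0.541, 0.439 and 0.518 within the ranges). For Acacb the relation with myelin markers was r = 0.445 (adjusted permutation p = 0.0913). Elovl2 was related to the neuron markers (r = 0.547, rho = 0.554, adjusted permutation p = 0.0463), with r = 0.478 without 2 tumours and 0.377, 0.807 and 0.14 within the ranges. Elovl1 passed with the neuron markers by r (-0.541, adjusted permutation p = 0.0463) but not by rho (-0.44, adjusted permutation p = 0.122). None of the 10 relations with the astrocyte markers passed, Elovl2 having r = 0.45 (adjusted permutation p = 0.0913), with 0.186, 0.841 and 0.12 within the ranges.

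**Figure D5:**
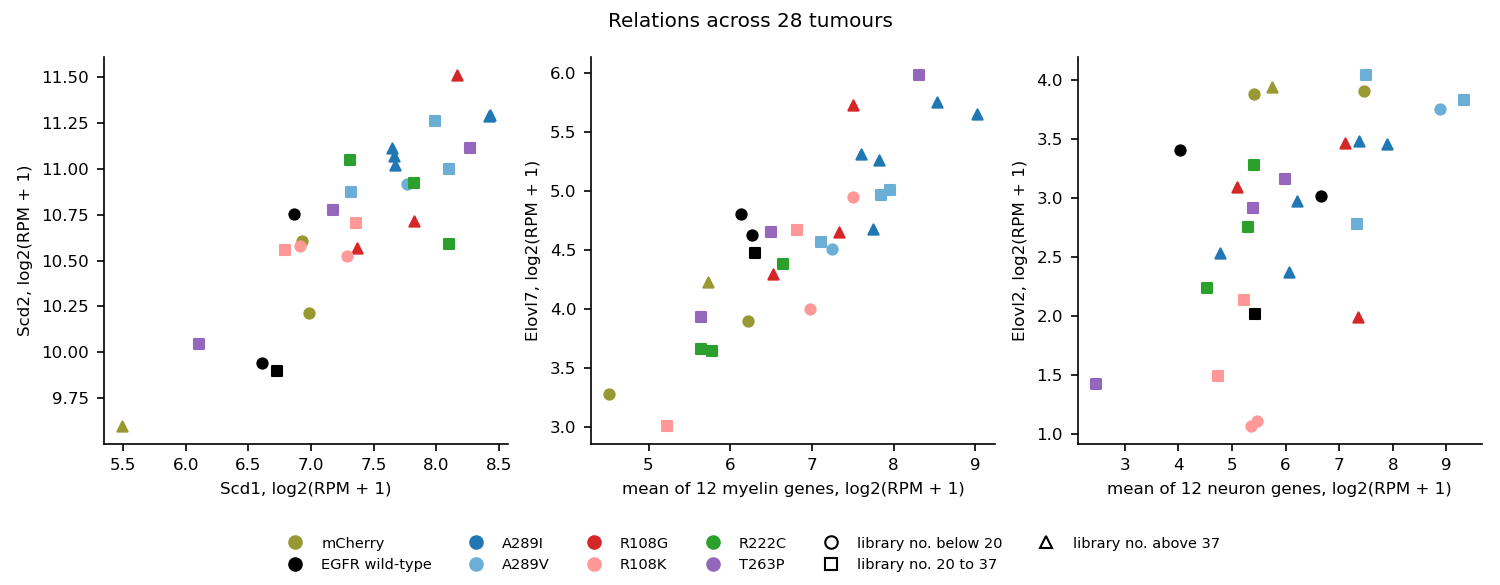
Levels per tumour on the log2(RPM + 1) scale, with 1 point for each of the 28 tumours and colours for the groups and marker shapes for the ranges of library numbers, for Scd1 against Scd2, Elovl7 against the mean of 12 myelin genes and Elovl2 against that of 12 neuron genes. Scd1 and Scd2 lie along a line (r = 0.862), as do Elovl7 and the 12 myelin markers (r = 0.879).

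The other genes whose levels over the 28 tumours were most like those of a member, by Pearson's r among the 12584 others that averaged 5 RPM or more, are given as a description. For Elovl7 they included the myelin genes Mag (r = 0.866) and Mbp (0.856). For Scd2 they were its homologue Scd3 (0.9), the fatty acid desaturase Fads1 (0.841) and the autophagy gene Atg2a (0.783), and for Scd1 Scd3 (0.815), Pdzd2 (0.769) and the oxysterol-binding protein gene Osbp (0.748). For Acacb they were Hip1r (0.837), the plasmolipin gene Pllp (0.824) and Ddc (0.811), which encodes aromatic amino acid decarboxylase. For Elovl2 they were Lrrc7 (0.783), Enc1 (0.77) and Klhl8 (0.763), for Fasn G6pc3 (0.735), Kat2a (0.707) and Aarsd1 (0.668), and for Acaca 1110008L16Rik (0.7), Nova1 (0.661) and Zfp334 (0.657). For Elovl1 they were Tmc6 (0.859), 1110007C09Rik (0.845) and Chst14 (0.842), while for Elovl5 they included Ccdc13 (0.709) and Hdhd2 (0.687), and for Elovl6 they were Papss1 (0.743), Ldlrad3 (0.721) and Pgrmc2 (0.72).

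The genes around the 10 in the pathway were read from 8 lists with 122 tested genes, of which 27 were higher and 26 lower than in cortex in receptor tumours, where 22.9% of all tested genes were higher and 24.3% lower. In mCherry tumours 12 were higher and 27 lower, where 17.8% and 20.5% of all genes were. The counts in receptor tumours are thus close to that background, as is the lower count in mCherry tumours. The median difference over these genes was -0.09 and -0.21, against 0.03 and 0.01 over all tested genes. In the list of acetyl-CoA, NADPH and malonyl-CoA supply, 6 of 14 genes were higher and 4 lower in receptor tumours than in cortex (limma, adjusted p below 0.05), with a median difference of 0.39. The pentose phosphate enzymes Pgd (1.29 ± 0.29) and G6pdx (0.92 ± 0.22), isocitrate dehydrogenase Idh1 (0.89 ± 0.29) and the mitochondrial citrate carrier Slc25a1 (0.70 ± 0.24) rose. The acetyl-CoA synthetase Acss2 (-1.61 ± 0.31), the mitochondrial pyruvate carrier subunits Mpc1 (-1.37 ± 0.34) and Mpc2 (-1.29 ± 0.21) and malonyl-CoA decarboxylase Mlycd (-0.70 ± 0.27) fell. ATP citrate lyase, Acly, was higher by 0.54 (adjusted p = 0.0495).
In mCherry tumours 3 genes of this list were higher and 5 lower than in cortex, Pgd, G6pdx and Idh1 by 1.46, 1.11 and 1.05, and Acss2 and Mpc1 by -1.89 and -1.77.

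Among 19 regulators of lipid synthesis, 3 were higher and 4 lower in receptor tumours than in cortex (background 22.9% and 24.3%), with a median of -0.28. Both shares lie below that background. Srebf1, the transcription factor that drives fatty acid synthesis genes, rose by 1.56 ± 0.39 (limma, adjusted p = 0.00228), as did the carbohydrate sensor Mlxip (1.10 ± 0.26) and the protease Mbtps1, which cleaves SREBP precursors (0.93 ± 0.27). Fbxw7, a ubiquitin ligase subunit that targets nuclear SREBP, fell (-2.79 ± 0.41), as did the AMPK subunit Prkaa2 (-1.35 ± 0.37), Insig2 (-0.94 ± 0.27) and Rxrb (-0.81 ± 0.29). In mCherry tumours 2 were higher and 2 lower (background 17.8% and 20.5%), with Srebf1 at 0.72 ± 0.49 (adjusted p = 0.252) and Fbxw7 at -2.81 ± 0.51 (adjusted p = 0.000198). Srebf1 differed by 0.83 ± 0.33 between receptor and mCherry tumours (limma, adjusted p = 0.606), and Srebf2, the factor of sterol synthesis, by 0.54 ± 0.23 (adjusted p = 0.653). Insig1 differed by 0.02 ± 0.28 between receptor tumours and cortex (limma, adjusted p = 0.956) and by 0.18 ± 0.23 between receptor and mCherry tumours (adjusted p = 0.945).

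Of 18 other elongation and desaturation genes tested, 3 were higher and 6 lower in receptor tumours than in cortex (background 22.9% and 24.3%), with a median of -0.29. Fads2, the desaturase that starts the polyunsaturated route, rose by 0.87 ± 0.27 (limma, adjusted p = 0.00946), while Fads1, which acts after it, fell (-0.49 ± 0.20, adjusted p = 0.0463). Elovl4 (-1.28 ± 0.24) and the enoyl reductase Tecr, which completes each elongation cycle (-1.10 ± 0.30), fell as well. In mCherry tumours 1 of the 18 was higher and 7 were lower (background 17.8% and 20.5%), Tecr by -1.50 and Fads1 by -0.91. Against mCherry, Scd3 was higher in A289I tumours (1.16 ± 0.26, adjusted p = 0.0399). Against EGFR_wildtype, 4 of the 18 were higher in A289V tumours, Fads1 (0.90 ± 0.21), Fads2 (0.87 ± 0.28), Fads6 (1.43 ± 0.38) and Scd3 (0.93 ± 0.28), and 1 was lower, Hsd17b12 (-0.76 ± 0.25). Of all tested genes 13.7% were called there, and 9.69% were called higher. In that comparison 9 of 12 neuron markers and 5 of 10 astrocyte markers were also higher, and their part was not tested. In A289I tumours Fads1 (0.94 ± 0.20, limma, adjusted p = 0.0476) and Scd3 (1.41 ± 0.26, adjusted p = 0.044) were also higher than in EGFR_wildtype tumours (background 0.335%). Fads2 differed there by 1.07 ± 0.26 and was not called (adjusted p = 0.0693).

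Of 15 fatty acid activation and binding genes, 4 were higher and 5 lower in receptor tumours than in cortex (background 22.9% and 24.3%), with a median of -0.72. The acyl-CoA-binding protein gene Dbi (2.39 ± 0.38) and the brain fatty acid-binding protein gene Fabp7 (2.39 ± 0.53) rose, and Fabp3 (-3.32 ± 0.43) and Acsl6 (-2.11 ± 0.40) fell (limma, adjusted p at most 0.000707). Of 19 oxidation genes (median 0.26) 7 were higher, among them Acads (1.75 ± 0.32), Hadha (1.24 ± 0.27), Etfdh (1.18 ± 0.22) and Cpt2 (1.07 ± 0.27), and 2 were lower, Cpt1c (-1.13 ± 0.30) and Acaa2 (-1.003 ± 0.40). Of 13 glycerolipid genes (median -0.22) 2 were higher, the acyltransferases Gpam (1.39 ± 0.33) and Agpat2 (1.399 ± 0.35), and 2 were lower. Of 11 genes of mitochondrial fatty acid synthesis (median -0.16) 2 were lower (limma), and of 14 sphingolipid and myelin lipid genes (median 0.33) 2 were higher and 1 lower. In the mean of the receptor groups against mCherry, limma called none of the 122 genes (median difference 0.12 against 0.0028 over all tested genes), with 20 at an unadjusted p under 0.05, 0 called by edgeR and 2 by DESeq2.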

How the data were processed

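RNA of 28 mouse tumours and 2 cortex samples had been sequenced as stranded polyadenylated libraries, per the labels' protocols. The submitters' processing notes name FastQC, STAR 2.5.0a, DESeq2 1.20.0 and mm10, without their roles. The deposited signal per gene and library is a read count that the authors divided by 1 size factor per library: all but 1 value came to whole reads to within 0.05 of a read (99.9959% or more per library). Their file names say RPM, as the planned design assumed, but the totals were 9.31 to 12.04 times 1000000, so the values were divided by 10.2638 throughout and are called RPM here. Date-like names replaced 27 gene names in the tables, none of them among the genes described.

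The filter kept genes at 1 RPM or more in 3 or more libraries. limma 3.58.1 in R 4.3.3 was fitted to log2(RPM + 1) of all 30 libraries with 9 group means (robust eBayes with a trend, two-sided, 21 residual degrees of freedom, Benjamini-Hochberg within a comparison, threshold 0.05). Alternatives on the recovered reads used edgeR 4.0.16 and DESeq2 1.42.0. Tested on simulated data with 200 of 15824 genes changed, the fit recovered 87% of 8-fold and 52% of 2.8-fold changes between A289V and mCherry, with 7 false calls among 146, and 81% and 34% between mCherry and cortex, with 3 among 118. Single ratios were compared by exact permutation over libraries. Replicates differed by more than counting noise in every group (chi-square per degree of freedom at least 4.42), so no library was counted as a copy. Replicate numbers follow accession order and pair nothing. Intervals and read floors cover counting error only.

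The genes and the lists around them were chosen with earlier results of these data known. All 10 genes were tested and counted in every comparison, and differences of single genes are given for a part of the comparisons. Of the lists, up to 4 passing genes in each direction were named, by smallest p, with Srebf1, Srebf2, Insig1, Acly, Fads1 and Fads2 named in addition. Cdc20 was added after its overlap with Elovl1 was seen. For Elovl5 and Elovl7, 1 of the 3 genes most like each is not reported here. Marker lists of 8 cell types were summed. Endothelial markers were higher in 2 and lower in 1 of 8 and T cell markers higher in 5 of 6 genes in receptor tumours than in cortex, and microglial markers in 6 of 10. Of all tested genes 22.9% were higher and 24.3% lower.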

Additional observations from a re-analysis of the deposited data

Results flagged for a closer look

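Elovl5, an elongase of polyunsaturated fatty acids, was flagged in the A289V tumours because 1 sample lay far from the others. Replicate 3 had 147.8 RPM, against 114.2 to 115.8 RPM in the other 3 tumours, so its gap to the nearest of them was 0.9475 of the whole range of the group, above Dixon's critical value of 0.829 for 4 samples. The other tumours lay unusually close together. The same check was run 30 times, on each of the 10 genes in each group of 4 or 5 samples, and chance flags about 1 in 20 such groups.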

How the results depend on the processing

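No paired analysis was possible because the numbers in the library names belong to 1 library each and the replicate numbers were given in accession order. Of 3930 differences of single genes under an alternative, 3786 stayed on the same side of the threshold, 88 lost it, 56 gained it, and none that was called changed sign. The numbers of genes called out of 10 changed more often. The share of all genes called under each alternative is not given, so these counts cannot be read against a background. DESeq2 called 1 in place of 0 in A289I against A289V, in R108K against EGFR_wildtype and in R108G, R222C, T263P and the receptor mean against mCherry, 2 in place of 0 and 1 in A289I and A289V against EGFR_wildtype, and 4 in place of 1 in A289I against mCherry. edgeR called 0 in place of 1, 2 and 1 in A289I and A289V against mCherry and A289V against EGFR_wildtype. With library weights the counts were 0 in R108K against mCherry, 1 in R108G against EGFR_wildtype and against mCherry, 2 in A289I against A289V, 3 in A289I against EGFR_wildtype, 4 in A289I against mCherry, A289V against EGFR_wildtype and mCherry against cortex, and 7 in the F-test and in the receptor mean against cortex. With no filter they were 0 in A289I and A289V and 1 in R108K against mCherry and 2 in the F-test. With a filter of 5 RPM R108G against mCherry gave 1. With only the groups compared they were 0 in A289V and R108K against mCherry and in mCherry against cortex, and 2 in the F-test. A pseudocount of 0.1 RPM gave 1 in A289V, R108G and the receptor mean against mCherry. A term for the ranges of library numbers gave 0 in A289V and R108K against mCherry and in mCherry against cortex. In A289I against mCherry that term lost the call of Acacb and gained that of Scd1, so the count did not move. Within ranges the count was 0 in A289V against EGFR_wildtype (both ranges), in A289V and R108K against mCherry (below 20) and in the F-test (each range). Without the 3 libraries with high Met it was 0 in A289I, A289V and R108K against mCherry and in A289V against EGFR_wildtype, and 1 in the F-test and in mCherry against cortex. The cause was not tested beyond what the smaller numbers of libraries or other numbers of genes imply. Counts that moved by no more than 1.5 times included 3 in place of 2 in A289V against mCherry (DESeq2, library weights and the 5 RPM filter) and 5 in place of 4 in the receptor mean against cortex (DESeq2, the term for ranges, library numbers 20 to 37 and without high Met). TMM rescaling moved no count.

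With 1 library left out the counts ran from 0 to 4 (mCherry against cortex), 1 to 5 (receptor mean against cortex), 0 to 1 (receptor mean against mCherry), 0 to 2 (A289I), 0 to 3 (A289V) and 0 to 2 (R108K) against mCherry, 0 to 1 (variant mean) and 0 to 2 (A289V) against EGFR_wildtype, and 1 to 6 (F-test), and were 0 in the other comparisons. The difference in the log2 ratio of Acaca to Acacb ran from -2.82 to -2.35. Depth limits Acacb in mCherry tumours (21 to 48 reads) and Elovl2 in R108K tumours (3 to 24 reads), and 2 cortex and 3 mCherry libraries limit each comparison with them.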
